A study of Homo sapiens with 18 samples.

Results

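The 3 human GADD45 genes, GADD45A, GADD45B and GADD45G, were followed in A375 melanoma cells exposed to IMD-0354. They are 3 of 60504 genes in the deposited expression table and were chosen by symbol, with earlier results of these data known. The gene lists below were chosen in the same way, so p-values, ranks and list counts belong to genes not picked blind to the data. Had a symbol several rows, the row would have been selected on its mean level, but each symbol had 1 row, so no measured value decided between rows. A375 is an established human melanoma cell line, and IMD-0354 is known as an inhibitor of IKKβ, a kinase upstream of NF-κB. Each of 6 groups had 3 replicates, 18 libraries in all. At 24 h cells were untreated or had received 0.32, 0.63 or 1.25 µM IMD-0354, and at 48 h they had received 0.63 µM or were untreated. The labels name no vehicle, and they do not say whether replicates were separate cultures, so p-values measure the spread between these libraries, which may be technical.

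GADD45 proteins are small nuclear proteins of the growth arrest and DNA damage response that have no known enzyme activity and act by binding partners. They bind and activate MAP3K4 at the head of the p38 and JNK kinase cascades, they bind PCNA and the p21 protein (CDKN1A), they can inhibit CDK1 with cyclin B1, and GADD45A is tied to DNA demethylation through TDG and TET enzymes. GADD45A is a textbook p53 target that is also induced by stress without p53, GADD45B is induced by NF-κB and TGF-β signalling, and GADD45G is known from differentiation and growth arrest.

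Levels are TPM, a length-scaled share of all transcripts that the authors brought to the same total in every library, and read depth cannot be recovered from it. A library had 14647 to 17029 genes above 0, and the 14936 genes that reached 1 TPM in 3 or more libraries were tested. GADD45A and GADD45B passed this filter and GADD45G did not. Of 8 melanocyte lineage markers SOX10 (8.29 to 34.7 TPM) and MITF (2.87 to 16.8 TPM) were above 0 in all 18 libraries, while the pigment enzyme genes TYR and TYRP1 were listed at 0 in all 18 and PMEL and DCT at 0 in 15. The summed level of the 8 markers ran from 15.96 to 19.7 TPM at 0.63 µM for 48 h and from 31.5 to 35.4 TPM in untreated 48 h cells. At 24 h treated libraries did not lie below untreated ones. The sum ran from 21.8 to 54.8 TPM in untreated cells and from 27.6 to 37.6 TPM at 0.32 µM. It ran from 26.9 to 34.3 TPM at 0.63 µM and from 36.1 to 40.6 TPM at 1.25 µM. The part of this sum in the results was not tested. Of 8 markers of other cell types none was above 1.6 TPM in any library, and PTPRC was at 0 in all 18. In bulk RNA, fewer cells of a state and less RNA per cell cannot be told apart.

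All 3 genes are short and protein coding, lie on the plus strand and overlap no other annotated gene in GENCODE release 29 (GRCh38), whose entries were matched by identifier. GADD45A (ENSG00000116717) spans chromosome 1, 67685061 to 67688338, GADD45B (ENSG00000099860) chromosome 19, 2476122 to 2478259, and GADD45G (ENSG00000130222) chromosome 9, 89605013 to 89606555. Each has a coding transcript of 4 exons, of 1496 bases for GADD45A, 1373 for GADD45B and 1065 for GADD45G, which encode 165, 160 and 159 residues. The libraries were made from transcript 3' ends, which give about 1 tag per transcript, while TPM is divided by length, so a ratio of levels between members carries the ratio of their lengths.

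Promoters are shown for GADD45B, which was induced, and GADD45G, which was nearly silent. These were the 2 of 3 members with an entry in the promoter set used, which held none for GADD45A. They are RefSeq windows on GRCh38.p14 with 250 bases before and 50 after the start of the gene, both on the plus strand, at chr19:2475877-2476176 and chr9:89604762-89605061. Capitals mark matches to any of the motifs searched.
GADD45B: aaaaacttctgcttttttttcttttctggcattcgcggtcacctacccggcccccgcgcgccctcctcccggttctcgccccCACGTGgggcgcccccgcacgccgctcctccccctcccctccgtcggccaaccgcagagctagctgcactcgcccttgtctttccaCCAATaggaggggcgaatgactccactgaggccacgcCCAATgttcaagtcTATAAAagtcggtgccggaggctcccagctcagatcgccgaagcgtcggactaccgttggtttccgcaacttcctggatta
GADD45G: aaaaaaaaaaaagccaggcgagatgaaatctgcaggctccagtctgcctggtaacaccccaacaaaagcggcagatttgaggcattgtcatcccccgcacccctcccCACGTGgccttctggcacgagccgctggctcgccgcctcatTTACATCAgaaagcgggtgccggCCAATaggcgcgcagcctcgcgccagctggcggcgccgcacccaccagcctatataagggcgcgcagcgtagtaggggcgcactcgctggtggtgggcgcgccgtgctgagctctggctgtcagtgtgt
Both strands were searched. Both windows hold the E-box CACGTG, 168 bases before the start in GADD45B and 143 bases before it in GADD45G, and 7.26% of 35116 promoters of this length hold it. CCAAT occurs 2 times in GADD45B and 1 time in GADD45G (34.6% of promoters), and TATAAA occurs in GADD45B, 31 bases before the start (11.5%). Only the exact letters TATAAA were searched. The GADD45G window holds the similar letters tatataa, which were not counted, so the windows cannot be set apart by a TATA box. The C/EBP-ATF element TGATGNAA occurs in GADD45G, on the opposite strand (3.62%). No match was found in either window for the AP-1 motif TGANTCA (7.71% of promoters), the CRE TGACGTCA (1.85%), the GC box GGGCGG (45.0%) or the NF-κB motif (5.91%). No marked motifs overlap. A match is a description of the letters and not a binding site.

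GADD45A was the most abundant member and rose with IMD-0354 at 0.63 and 1.25 µM. At 24 h its replicates stood at 34.8, 98.2 and 31.4 TPM in untreated cells, at 47.0, 56.1 and 55.9 TPM at 0.32 µM, at 118, 113 and 179 TPM at 0.63 µM and at 272, 287 and 398 TPM at 1.25 µM. At 48 h it stood at 201, 207 and 202 TPM at 0.63 µM, against 39.7, 33.8 and 43.3 TPM in untreated cells. Every library at 0.63 or 1.25 µM was above every untreated library of its time, and the 0.32 µM libraries lay inside the untreated range.

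GADD45B, the member known as an NF-κB target, was several times lower and moved the same way with a smaller change. At 24 h its replicates were at 14.3, 10.8 and 9.50 TPM in untreated cells, at 16.9, 10.2 and 14.05 TPM at 0.32 µM, at 23.8, 21.8 and 18.2 TPM at 0.63 µM and at 34.1, 36.7 and 42.5 TPM at 1.25 µM. At 48 h they were at 18.5, 20.1 and 21.8 TPM at 0.63 µM, against 11.9, 7.41 and 12.5 TPM in untreated cells. Here too the 0.63 and 1.25 µM libraries lay above all untreated libraries of their time, while 0.32 µM and untreated libraries overlapped.

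GADD45G was listed at 0 in 14 of 18 libraries. The 4 values above 0 were all at 0.63 µM, 0.95 and 0.51 TPM in replicates 2 and 3 at 24 h and 0.47 and 0.31 TPM in replicates 1 and 2 at 48 h. It was below 1 TPM in every library, including the 3 at 1.25 µM, where it was listed at 0. With no filter on low values limma gave GADD45G an adjusted p of 0.215 at 0.63 µM for 24 h and 0.43 for 48 h. Commonly used control genes were above 0 in each library, with TBP at 2.97 to 13.35 TPM. Their levels were not constant, with GAPDH from 25.5 to 690 TPM and ACTB from 875 to 2463 TPM.

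**Figure D1:**
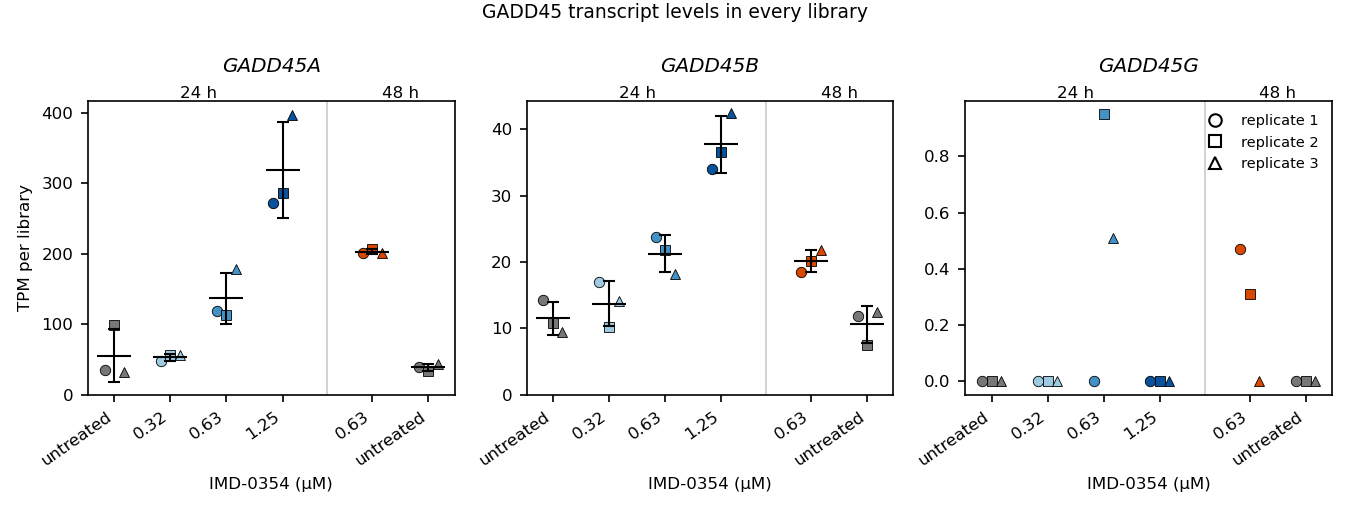
TPM of GADD45A, GADD45B and GADD45G in each of the 18 libraries, by IMD-0354 dose at 24 h and 48 h; marker shape gives the replicate, and bars give mean and SD (n = 3) for the first 2 genes. GADD45A reaches 272 to 398 TPM at 1.25 µM, untreated 24 h replicate 2 stands at 98.2 TPM, and GADD45G stays under 1 TPM.

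The order of the 6 group means of GADD45A was 319 ± 68.6 TPM at 1.25 µM for 24 h, 203 ± 3.21 TPM at 0.63 µM for 48 h, 137 ± 36.7 TPM at 0.63 µM for 24 h, 54.8 ± 37.6 TPM untreated at 24 h, 53 ± 5.17 TPM at 0.32 µM and 38.9 ± 4.79 TPM untreated at 48 h (SD, n = 3). Neighbours in this order had separate ranges except for untreated 24 h cells and 0.32 µM, which differed by 1.82 TPM, less than their pooled SD of 26.9 TPM. For GADD45B the order was 37.7 ± 4.31 TPM at 1.25 µM, 21.3 ± 2.80 TPM at 0.63 µM for 24 h, 20.1 ± 1.67 TPM at 0.63 µM for 48 h, 13.7 ± 3.37 TPM at 0.32 µM, 11.5 ± 2.48 TPM untreated at 24 h and 10.6 ± 2.77 TPM untreated at 48 h (SD, n = 3). The ranges of 0.63 µM at 24 h and 48 h overlapped, as did those of 0.32 µM and both untreated groups in their neighbouring pairs. The 48 h libraries at 0.63 µM thus stood above the 24 h libraries of that dose for GADD45A and among them for GADD45B.

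At 0.32 µM for 24 h neither gene passed the test against untreated cells. GADD45A stood at 53 ± 5.17 TPM against 54.8 ± 37.6 TPM and GADD45B at 13.7 ± 3.37 against 11.5 ± 2.48 TPM (SD, n = 3 each). On the log2(TPM + 1) scale, on which all tests were made, the differences were 0.15 (SE 0.32, limma adjusted p = 0.974) and 0.22 (SE 0.23, limma adjusted p = 0.928). Limma called 0.0268% of all tested genes at this dose in either direction, and 912 genes had an unadjusted p under 0.05. For GADD45A the sign was not fixed, with -0.15 without untreated replicate 3, -0.08 without untreated replicate 1 and 0.66 without untreated replicate 2.

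At 0.63 µM for 24 h GADD45A rose to 137 ± 36.7 TPM, against 54.8 ± 37.6 TPM in untreated cells, a ratio of means of 2.49. The log2 fold change was 1.47 (SE 0.32, limma adjusted p = 0.0276). GADD45B had 21.3 ± 2.80 TPM against 11.5 ± 2.48 TPM, a log2 fold change of 0.84 (SE 0.23, limma adjusted p = 0.0695), and did not pass, although 3 of 3 treated libraries were above all untreated ones. Limma called 1.36% of all tested genes higher and 0.824% lower at this dose, and 10.0% were higher with no overlap between the groups. The call for GADD45A was lost without untreated replicate 1 (adjusted p = 0.0739), untreated replicate 3 (0.0576), 0.63 µM replicate 1 (0.057) or 0.63 µM replicate 3 (0.143). Its adjusted p was 0.000265 without untreated replicate 2, 0.0539 with no filter and 0.326 when the fit held the compared groups alone. GADD45B passed when the filter was set to 5 TPM (adjusted p = 0.0485).

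At 1.25 µM for 24 h both genes rose. GADD45A rose to 319 ± 68.6 TPM, against 54.8 ± 37.6 TPM in untreated cells, a ratio of 5.82 and a log2 fold change of 2.7 (SE 0.32, limma adjusted p = 5.59e-05). It ranked 29 among 14936 genes by log2 fold change. GADD45B rose to 37.7 ± 4.31 TPM, against 11.5 ± 2.48 TPM, a ratio of 3.27 and a log2 fold change of 1.64 (SE 0.23, limma adjusted p = 0.000305), and ranked 246. Limma called 4.94% of all tested genes higher and 6.36% lower at this dose, and 12.4% were higher with no overlap. Both calls held with each library left out, and that of GADD45A was lost when the fit held the compared groups alone (adjusted p = 0.0648).

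At 0.63 µM for 48 h both genes rose again. GADD45A rose to 203 ± 3.21 TPM, against 38.9 ± 4.79 TPM in untreated 48 h cells, a ratio of 5.22 and a log2 fold change of 2.36 (SE 0.32, limma adjusted p = 0.000269), and ranked 38. GADD45B rose to 20.1 ± 1.67 TPM, against 10.6 ± 2.77 TPM, a ratio of 1.90 and a log2 fold change of 0.90 (SE 0.23, limma adjusted p = 0.0241), and ranked 691. Limma called 1.95% of tested genes higher and 5.68% lower in this comparison, 9.23% were higher with no overlap, and the median over all tested genes was -0.15. Relative to the typical gene, by median-of-ratios scaling, the changes were 2.57 for GADD45A and 1.10 for GADD45B. The call for GADD45B was lost without untreated replicate 2 (adjusted p = 0.136), 0.63 µM replicate 2 (0.0633) or 0.63 µM replicate 3 (0.0998), while GADD45A kept its call with each library left out.

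**Figure D2:**
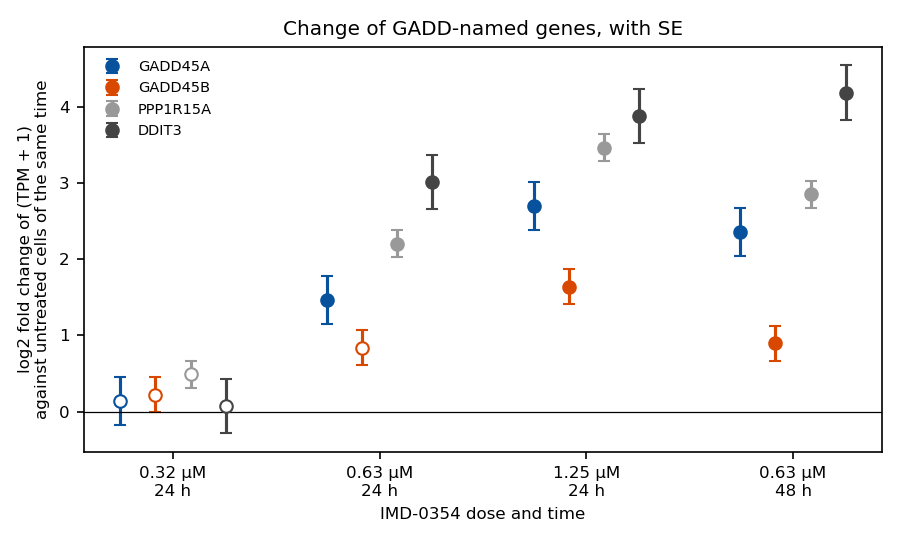
Log2 fold change of (TPM + 1), with SE, of GADD45A, GADD45B, PPP1R15A and DDIT3 at each dose and time against untreated cells of the same time; filled points passed an adjusted p of 0.05 in limma and open points did not. GADD45A lies at 1.47, 2.7 and 2.36 and GADD45B at 0.84, 1.64 and 0.90 in the 3 comparisons at 0.63 and 1.25 µM.

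Between neighbouring doses neither gene passed. Between 0.63 and 0.32 µM the log2 difference was 1.32 for GADD45A (SE 0.32, limma adjusted p = 0.0763) and 0.61 for GADD45B (SE 0.23, limma adjusted p = 0.244), and limma called 0.402% of genes higher. Between 1.25 and 0.63 µM it was 1.23 for GADD45A (SE 0.32, limma adjusted p = 0.0629) and 0.80 for GADD45B (SE 0.23, limma adjusted p = 0.0943), and 0.469% of genes were called higher. In both steps the 3 libraries at the higher dose lay above all 3 at the lower dose for each gene, as did 11.0% and 8.94% of all tested genes. For GADD45A the step at the top passed with a 5 TPM filter (adjusted p = 0.0473) and with quantile normalization (0.0391).

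The effect of 0.63 µM at 48 h less that at 24 h was 0.89 for GADD45A (SE 0.45) and 0.06 for GADD45B (SE 0.32), and neither difference passed (limma adjusted p = 0.443 and 0.966). For GADD45A it was 0.38 without untreated 24 h replicate 2. Limma called 0.0335% of tested genes for this difference. Untreated cells at 48 h and 24 h differed by -0.29 for GADD45A and -0.13 for GADD45B (limma adjusted p = 0.857 and 0.923), with 0.0134% of genes called.

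Untreated 24 h replicate 2 weighs on every GADD45A comparison at 24 h. Its 98.2 TPM was 2.82 times the next untreated replicate, and without it GADD45A was 3.21 higher at 1.25 µM and 1.98 higher at 0.63 µM. This library had the lowest mean correlation with its own group of all 18, 0.907 across genes, with the others between 0.920 and 0.953. Of 7980 genes with a mean of at least 5 TPM in untreated 24 h cells, 1.83% were as far above the other replicates in it, against 0.351% in replicate 1 and 0.802% in replicate 3. In it GADD45B (10.8 TPM) and DDIT3 (14.01 TPM) lay between the other 2 untreated replicates, PPP1R15A (17.5 TPM) and the p53 target CDKN1A (6.45 TPM) were the lowest of the 3, and MDM2, which encodes the ubiquitin ligase of p53 and was picked after its values were seen, the highest (129 TPM). What raised GADD45A there was not tested.

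The ratio of GADD45A to GADD45B was higher in each 0.63 µM library at 48 h than in each untreated 48 h library, and no ratio test passed at any dose or time. The level of GADD45A over that of GADD45B, both in TPM, was 10.9, 10.3 and 9.24 in the 0.63 µM libraries at 48 h, against 3.35, 4.56 and 3.46 in untreated 48 h libraries, with no overlap. At 24 h it was 2.43, 9.09 and 3.31 in untreated cells, 2.78, 5.49 and 3.98 at 0.32 µM, 4.99, 5.16 and 9.81 at 0.63 µM and 7.99, 7.82 and 9.36 at 1.25 µM, where untreated replicate 2 overlapped the treated libraries. The log2 ratio of GADD45B to GADD45A differed by -1.47 at 0.63 µM for 48 h (exact permutation p = 0.1, two-sided, the smallest that 3 against 3 allows). At 24 h it differed by 0.08 at 0.32 µM, -0.63 at 0.63 µM and -1.06 at 1.25 µM (exact permutation p = 0.9, 0.4 and 0.3). Without untreated replicate 2 these became -0.47, -1.177 and -1.60 (exact permutation p = 0.3, 0.1 and 0.1, where 0.1 is the smallest that 3 against 2 allows). Without untreated replicate 1 they became 0.45, -0.26 and -0.68 (exact permutation p = 0.6, 0.9 and 0.3), and without 0.63 µM replicate 3 the value at 0.63 µM was -0.32 (exact permutation p = 0.7).

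**Figure D3:**
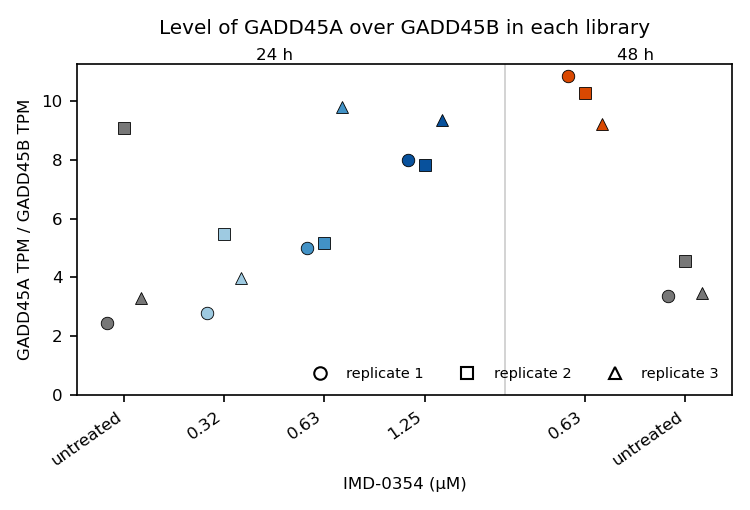
Ratio of GADD45A TPM to GADD45B TPM in each library by IMD-0354 dose and time; marker shape gives the replicate. At 48 h the 3 treated libraries lie at 9.24 to 10.9 and the untreated at 3.35 to 4.56, and at 24 h untreated replicate 2 (9.09) lies with the 1.25 µM libraries.

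Genes with the most similar pattern were found by the root mean square difference between the 6 group means of log2(TPM + 1), each gene centred on its own mean, among 8836 genes with a symbol and at least 5 TPM in a group. For GADD45A they were TM4SF19, a tetraspan membrane protein (0.17), VGF, a neurosecretory peptide precursor (0.18), NIBAN1, a stress-induced protein (0.20), SNHG32, a snoRNA host (0.23), and RCAN1, an inhibitor of calcineurin (0.25), where the median gene was at 1.20. VGF had group means of 142 TPM at 1.25 µM and 17.4 TPM in untreated 24 h cells, and SNHG32 660 and 110 TPM. At 0.63 µM for 24 h TM4SF19 and SNHG32 did not pass (limma adjusted p = 0.0565 and 0.0826). Among genes named here for their role, PPP1R15A ranked 11 (0.30), CDKN1A 80 (0.56), GADD45B 83 (0.57), ATF3 131 (0.64) and DDIT3 393 (0.79).

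GADD45B lay nearest to CYSTM1 (0.11), DNAJB2, a co-chaperone of HSP70 (0.12), NPC1, the lysosomal cholesterol transporter (0.12), DTD1, which removes D-amino acids from tRNA (0.13), and CBY1, an antagonist of β-catenin (0.13), where the median gene was at 0.68. NPC1 had 18.1 TPM at 1.25 µM and 6.63 TPM in untreated 24 h cells. These neighbours all passed at 1.25 µM (limma adjusted p from 0.00508 to 0.0212). None passed at 0.63 µM for 24 h (limma adjusted p from 0.106 to 0.503) or for 48 h (from 0.0792 to 0.218). CDKN1A ranked 925 (0.44), ATF3 1428 (0.49), GADD45A 2676 (0.57), PPP1R15A 6731 (0.83) and DDIT3 8669 (1.34), the last 2 farther than the median gene. The distances for both members were not scaled for size of change, so a larger change in the same groups also counts as distance. PPP1R15A and DDIT3 changed more than GADD45B at 1.25 µM, and their ranks cannot tell this from a different pattern. Since GADD45B changed less than GADD45A, many genes came near it, and these distances describe 6 group means only.

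**Figure D4:**
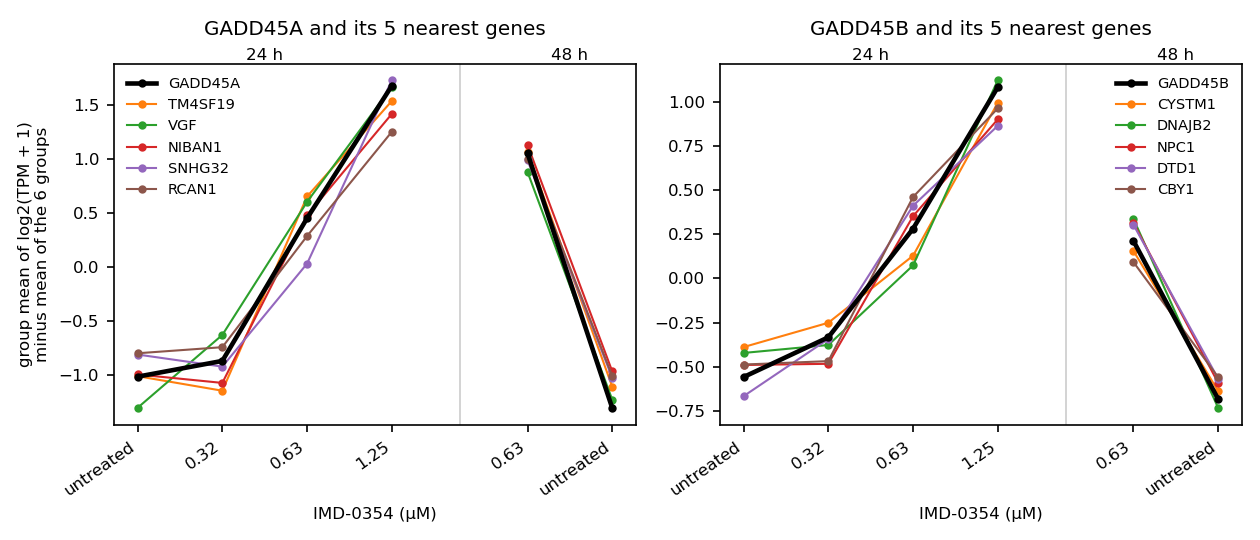
Group means of log2(TPM + 1), each gene centred on its mean over the 6 groups, for GADD45A and GADD45B (black) and the 5 genes nearest to each, by IMD-0354 dose and time. SNHG32 lies below GADD45A at 0.63 µM for 24 h, and GADD45B spans a smaller range than GADD45A.

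The other genes named for growth arrest and DNA damage changed more than the GADD45 pair at 0.63 and 1.25 µM. PPP1R15A (GADD34), which directs dephosphorylation of eIF2α, stood at 80.5, 83.5 and 121 TPM at 0.63 µM and 219, 219 and 238 TPM at 1.25 µM, against 23.0, 17.5 and 18.5 TPM in untreated 24 h cells. DDIT3 (GADD153), the transcription factor CHOP, stood at 218, 184 and 323 TPM at 0.63 µM for 48 h, against 10.8, 15.8 and 10.02 TPM in untreated 48 h cells. At 1.25 µM their log2 fold changes were 3.46 (limma adjusted p = 1.9e-08) and 3.87 (limma adjusted p = 5.99e-06), against 2.7 for GADD45A and 1.64 for GADD45B. At 0.32 µM 0 of the 2 passed (1 with an unadjusted p under 0.05), and DDIT3 stood at 10.9, 21.4 and 16.05 TPM against 18.4, 14.01 and 12.4 TPM in untreated cells. Both rose in the other 3 comparisons with untreated cells in limma. There 1.36%, 4.94% and 1.95% of all tested genes were called higher, at 0.63 and 1.25 µM for 24 h and 0.63 µM for 48 h. The differences in change between these genes and the GADD45 pair were not tested.

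Limma called 2.18% of all tested genes in either direction at 0.63 µM for 24 h, 11.3% at 1.25 µM and 7.63% at 0.63 µM for 48 h. An unadjusted p under 0.05 was reached by 6.11% of all genes at 0.32 µM, 17.9% at 0.63 µM for 24 h, 25.7% at 1.25 µM and 21.2% at 0.63 µM for 48 h. When the fit held the compared groups alone, limma called 0 genes at 0.63 µM for 24 h and 171 at 1.25 µM, so every list count at 0.63 µM for 24 h was then 0.

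ATF4 and CHOP targets, the genes of the integrated stress response, were higher beside GADD45A. The list includes PPP1R15A and DDIT3. Of 14 tested 0 passed at 0.32 µM in limma (2 with an unadjusted p under 0.05), 9 rose at 0.63 µM for 24 h, 9 at 1.25 µM and 10 at 0.63 µM for 48 h, and none fell in these comparisons. Their medians were 1.67, 1.42 and 1.65 in the last 3 comparisons, beside 0.00, -0.01 and -0.15 over all tested genes. In the same 3 comparisons limma called 1.36%, 4.94% and 1.95% of all tested genes higher. SESN2, a stress sensor that restrains mTORC1, rose by 2.13, 2.55 and 2.88, and CHAC1, which degrades glutathione, by 2.90, 2.62 and 2.46. With the compared groups alone 4 passed at 1.25 µM.

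Of 14 tested p53 targets 0 passed at 0.32 µM and 0 at 0.63 µM for 24 h in limma, with 1 and 3 at an unadjusted p under 0.05, close to the share of all genes. At 1.25 µM 2 of 14 were called, beside 11.3% of all genes in either direction and 4.94% in the higher direction. The list medians were -0.11, -0.13 and 0.38 at 0.32, 0.63 and 1.25 µM for 24 h. At 1.25 µM 2 rose and 0 fell, the cell cycle inhibitor gene CDKN1A (1.95, limma adjusted p = 0.00698; 62.8 ± 34.9 against 16.4 ± 10.5 TPM) and BBC3, the apoptosis inducer PUMA (1.14, adjusted p = 0.0305). The kinase gene PLK3 rose at 0.63 µM for 48 h by 1.59 (adjusted p = 0.00103) and the apoptosis gene BAX fell by 2.03 (adjusted p = 0.00705). In that comparison limma called 1.95% of all tested genes higher and 5.68% lower. The list median was 0.24, beside -0.15 over all tested genes. Of the 14 targets 5 had an unadjusted p under 0.05 there, beside 21.2% of all genes. At 1.25 µM the count was 1 without untreated replicate 1 or 2 or 1.25 µM replicate 1 or 3 or with no filter, and 0 with the compared groups alone. At 0.63 µM for 24 h it was 1 without untreated replicate 3, with a pseudocount or filter of 5 TPM, under median-of-ratios or quantile scaling and with the replicate number as a block. At 48 h it was 4 under both scalings and with the compared groups alone.

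NF-κB targets, a class to which GADD45B is counted, had calls in both directions at 1.25 µM and in the higher direction at 48 h. Of 12 tested 0 passed at 0.32 µM and 0 at 0.63 µM for 24 h in limma (2 and 1 at an unadjusted p under 0.05). Of all tested genes 6.11% and 17.9% had such a p. Over all tested genes limma called 4.94% higher and 6.36% lower at 1.25 µM. At 0.63 µM for 48 h it called 1.95% higher and 5.68% lower. The list medians were -0.11, 0.24 and 0.12 at 0.32, 0.63 and 1.25 µM for 24 h and 0.37 at 0.63 µM for 48 h, the last beside -0.15 over all genes. At 1.25 µM TNFAIP3, a feedback inhibitor, rose by 1.14 (2.61 ± 0.672 against 0.633 ± 0.26 TPM) and 3 fell: NFKBIA, which encodes IκBα (-0.98, 11.6 ± 0.499 against 24.3 ± 6.32 TPM), and the chemokine genes CXCL1 (-0.91) and CCL2 (listed at 0 in all treated libraries). With 0.63 µM for 48 h the chemokine gene CXCL2 (1.84) and the subunit gene NFKB2 (0.95) rose. At 1.25 µM the 4 calls became 1 when untreated replicate 2 or 1.25 µM replicate 1 was left out, 2 when 1.25 µM replicate 2 was, and 0 when 1.25 µM replicate 3 was. They became 2 with a 5 TPM filter and 0 with the compared groups alone. The count at 48 h was 1 without each library except untreated replicate 2, where it was 3. It was 0 with a 5 TPM filter, and 1 with no filter, with the replicate number as a block or with the compared groups alone.

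Transcription factors reported to control GADD45 genes had calls in both directions. Of 17 tested 0 passed at 0.32 µM in limma (0 at an unadjusted p under 0.05). At 0.63 µM for 24 h 3 rose, CEBPB (1.66), MYC (1.61) and EGR1 (1.32), where 1.36% of all genes were called higher. At 1.25 µM 5 rose and 2 fell, where 4.94% of all genes were called higher and 6.36% lower, with CEBPB at 78.5 ± 6.84 against 20.3 ± 7.03 TPM and JUND, an AP-1 subunit, higher by 1.38. At 0.63 µM for 48 h ATF3 (1.95), CEBPB (1.31) and ATF4 (0.70) rose and SMAD3, a mediator of TGF-β signalling, fell by 1.35. There 1.95% of all genes were called higher and 5.68% lower. At 0.63 µM for 24 h the count was 1 without 0.63 µM replicate 2. It was 2 without untreated replicate 1 or 2 or 0.63 µM replicate 1 or 3, and with no filter. At 1.25 µM it was 4 without untreated replicate 1 or 3 or 1.25 µM replicate 1 or 3, and 0 with the compared groups alone. The list medians were 0.13, 0.33 and 0.24 at 0.32, 0.63 and 1.25 µM for 24 h and 0.22 at 0.63 µM for 48 h.

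In the p38 and JNK cascade that GADD45 proteins feed into, no kinase transcript was called. Of 12 tested kinases 0 passed in any of the 4 comparisons with untreated cells in limma, and 0, 2, 3 and 2 had an unadjusted p under 0.05 at 0.32, 0.63 and 1.25 µM for 24 h and 0.63 µM for 48 h, at or under the share of all genes. The list medians were 0.12, -0.00 and -0.13 at 24 h and -0.34 at 48 h. MAP3K4, the kinase GADD45 proteins bind, stood at 16.1 ± 3.59 TPM at 1.25 µM against 25.9 ± 8.09 TPM (adjusted p = 0.514). MAP2K6, which phosphorylates p38, was at 0.117 ± 0.202 TPM at 0.63 µM for 48 h against 3.10 ± 1.84 TPM (adjusted p = 0.0708). At 1.25 µM 1 kinase passed without 1.25 µM replicate 3, with a pseudocount of 0.1 TPM, with no filter, with a 5 TPM filter and under median-of-ratios or quantile scaling. At 48 h 1 passed with the low pseudocount, under quantile scaling and with the compared groups alone.

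Cell cycle and other binding partners of GADD45 proteins, taken as 1 list, were mostly lower at 1.25 µM and at 48 h. The list of 6 had no call at 0.32 µM (0 in limma, 0 at an unadjusted p under 0.05), 1 lower at 0.63 µM for 24 h, 1 higher and 4 lower at 1.25 µM and 4 lower at 0.63 µM for 48 h. Over all tested genes limma called 0.824%, 6.36% and 5.68% lower in the last 3 of these comparisons, and 4.94% higher at 1.25 µM. CDK1 had 34.2, 31.5 and 15.1 TPM at 1.25 µM, against 167, 170 and 190 TPM in untreated 24 h cells, and fell by 2.74 on the log2 scale (limma adjusted p = 3.06e-05). CCNB1, cyclin B1, fell by 1.13 and 2.13 at 0.63 and 1.25 µM for 24 h and by 1.5 at 0.63 µM for 48 h, and the clamp gene PCNA fell by 2.29 at 48 h. The gene that rose was CDKN1A, which is also counted among the p53 targets. The list medians were -0.82 and -1.85 at 0.63 and 1.25 µM for 24 h and -1.52 at 0.63 µM for 48 h. With the compared groups alone 3 of 6 passed at 1.25 µM. Of the 9 partners in DNA demethylation and repair TAF12 rose at 1.25 µM (1.02, adjusted p = 0.0116), 1 of 9 where 11.3% of all genes were called, and this call was lost with the compared groups alone. In limma 0 passed in the other comparisons with untreated cells (1 at an unadjusted p under 0.05 at 0.32 µM, 1 at 0.63 µM for 24 h and 0 at 48 h). TDG, the glycosylase of active demethylation, had 25.0 ± 5.58 against 50.5 ± 46.7 TPM at 1.25 µM.

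**Figure D5:**
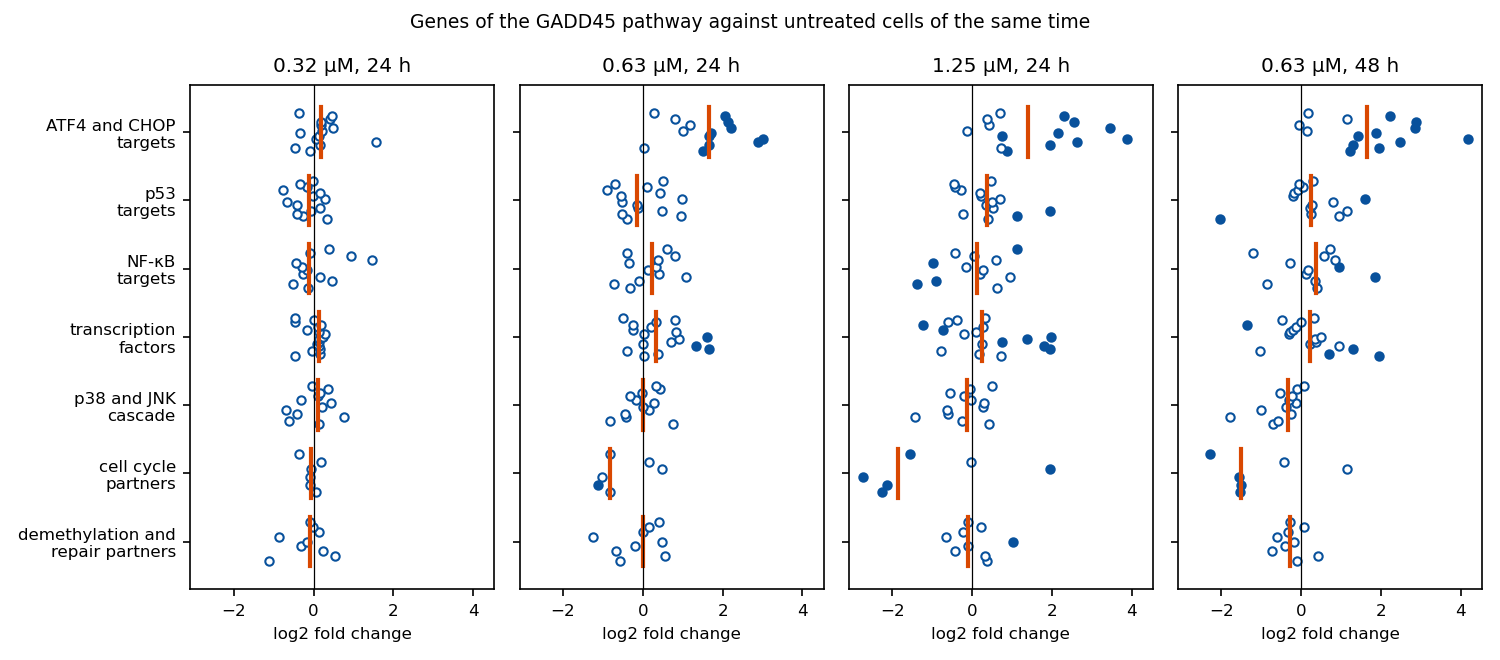
Log2 fold change of (TPM + 1) of each tested gene in 7 lists at each dose and time against untreated cells of the same time; filled points passed an adjusted p of 0.05 in limma and the vertical bar is the list median. The ATF4 and CHOP targets have medians of 1.67, 1.42 and 1.65 at 0.63 and 1.25 µM and 0.63 µM for 48 h, and the p38 and JNK kinases have no filled point. The list labelled cell cycle partners also holds other binding partners.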

How the data were processed

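RNA of 18 A375 libraries was measured with QuantSeq 3' mRNA kits, per the labels' protocols. The tools named, without roles, were STAR 2.7, RSEM 1.3.1, cutadapt 1.18 and DESeq2, per the submitters' processing notes. Genome build and gene annotation: not given in the sources used here. TPM per gene, which keep no read depth, are the unit the authors deposited; columns sum to between 999999.1 and 1000000.5. Symbols were matched for 56558 identifiers and given for 41209.

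From the TPM, log2(TPM + 1) was computed for genes that reached 1 TPM in 3 or more libraries. Limma 3.58.1 in R 4.3.3 was fitted to all 18 libraries with a mean per group (12 residual degrees of freedom) and a mean-variance trend, with Benjamini-Hochberg adjustment over 14936 genes and a threshold of 0.05, two-sided; the steps were tested on simulated data. The GADD45B to GADD45A ratio was tested by exact permutation. The members and lists were chosen with earlier results of these data known. Named genes were the members, the 5 nearest patterns of each, and from every list the 4 called genes of largest change at most, or the 2 of largest change where under 2 were called. The promoter set used had no entry for GADD45A, so its promoter was not analysed. Same-numbered replicates were checked for pairing.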

Additional observations from a re-analysis of the deposited data

How the results depend on the processing

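Among alternative fits of the GADD45 comparisons 237 kept direction and side of the threshold, 11 lost a call, 3 gained one and 11 changed sign; the cause of each change was not tested. GADD45A at 0.63 µM for 24 h (1.47) lost its call with no filter (1.47, adjusted p = 0.0539) and with the compared groups alone in the fit (1.47, adjusted p = 0.326), as did GADD45A at 1.25 µM (2.7, 0.0648) and GADD45B at 48 h (0.90, 0.0656) with the compared groups alone. A 5 TPM filter brought GADD45B at 0.63 µM for 24 h (0.84, 0.0485) and the GADD45A step between 1.25 and 0.63 µM (1.23, 0.0473) under the threshold, and quantile normalization that step (1.33, 0.0391). With single libraries left out the range was 1.176 to 1.98 for GADD45A at 0.63 µM for 24 h, -0.15 to 0.66 for GADD45A at 0.32 µM, 0.68 to 1.02 for GADD45B at 48 h, 0.38 to 1.19 for GADD45A and -0.16 to 0.18 for GADD45B in the effect at 48 h less that at 24 h, -0.58 to 0.22 for GADD45A and -0.25 to 0.0899 for GADD45B in untreated cells at 48 h against 24 h, and -0.47 to 0.45, -1.177 to -0.26, -1.60 to -0.68 and -1.59 to -1.39 for the log2 ratio at 0.32, 0.63 and 1.25 µM for 24 h and 0.63 µM for 48 h. Without untreated 24 h replicates 2 and 3, an alternative chosen after seeing the data, GADD45B at 0.32 µM was at -0.0808 and GADD45A in untreated cells at 48 h against 24 h at 0.15.

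Same-numbered libraries did not deviate together (r from -0.09 to 0.08 over 12 pairs, 0 above 0.1; 7 of 12 correlated best with their own number). With the replicate number as a block GADD45A at 0.63 µM for 24 h stayed at 1.47 (adjusted p = 0.0299), no GADD45 call changed, and calls over all genes at that dose numbered 420 against 326. Counts of genes called in the 4 comparisons with untreated cells were 4, 326, 1688 and 1140 at 0.32, 0.63 and 1.25 µM for 24 h and 0.63 µM for 48 h. They ran from 1 to 4, 51 to 490, 960 to 1676 and 557 to 879 with single libraries left out, and from 0 to 14, 0 to 420, 171 to 1767 and 917 to 1272 under the other planned settings. Depth is unknown from TPM, so how far it limits GADD45G, at or near 0, cannot be given.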
